A study of Mus musculus with 16 samples.

Results

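The 8 genes described here are the receptor chain genes Lifr and Il6st, the transcription factor gene Stat3, and 5 genes known as targets of the factor in embryonic stem cells, Socs3, Socs2, Pim1, Pim3 and Bcl3. They were chosen by name, as the probes whose RefSeq accession maps to them, and are 8 of 20972 genes named on the array and 8 of 15517 genes tested. Together they have 13 probes: 3 for Lifr, 3 for Socs2, 2 for Stat3 and 1 for each of the others. All 13 lay well above background on all 16 arrays. RNA came from 16 mouse lines of the 129/Ola background, each hybridised once to a single-colour Agilent array, with 4 lines in each of 4 culture groups. LIF_serum lines were derived from pre-implantation embryos and kept with leukemia inhibitory factor (LIF) and serum, at passages 23 to 26, and are labelled naive. The 2i_LIF lines were kept with 2i and LIF, at passages 22 to 24, and the 2iSB_LIF lines with 2i, SB431542 and LIF, at passages 17 to 24; both are labelled ground state. EpiSC lines, labelled primed, were taken from the epiblast at embryonic day 6.5, after implantation, and kept with Activin A and bFGF, with no LIF named, at passages 24 to 28. As background, 2i is a mixture of a MEK inhibitor and a GSK3 inhibitor, and SB431542 blocks the type I receptors of Activin, Nodal and TGF-beta. The labels name no transgene or knockout in any group.

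LIF binds a receptor made of LIFR and gp130, the product of Il6st. The bound receptor activates JAK kinases, which phosphorylate STAT3, and STAT3 dimers then enter the nucleus and switch on target genes. In mouse embryonic stem cells this signal supports self-renewal. Lines taken from the post-implantation epiblast are known to grow without it, on Activin A and FGF. Socs3 and Socs2 encode SOCS proteins, which feed back on cytokine receptors. Pim1 and Pim3 encode serine/threonine kinases that favour survival, and Bcl3 encodes a nuclear member of the I-kappa-B family that works with NF-kappa-B subunits.

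STAT3 dimers bind inverted repeats of the form TTCNNNGAA, so RefSeq promoter windows (GRCm38.p6, 250 bases before to 50 after a start site) were searched for these letters. Windows were given for 7 of the 8 members, 9 windows in all. The motif reads the same on both strands. It occurred in 1 of the 9 windows, that of Socs3, at 154 to 146 bases before the start. Of all 32851 windows of this length 8.3% hold it. The form with 4 spacer bases, TTCNNNNGAA, which also reads the same on both strands and cannot lie on the same bases as the first, was in none of the 9 windows and in 6.95% of all windows. The windows of Socs3 (chr11:117969317-117969616, minus strand), Lifr (chr15:7129322-7129621, plus strand) and Bcl3 (chr7:19822706-19823005, minus strand) are shown, because these are the members whose EpiSC arrays lay below every array kept with LIF. Capitals mark the motif. Lifr has another window, chr15:7140292-7140591, which lacks the motif and is not shown.
Socs3: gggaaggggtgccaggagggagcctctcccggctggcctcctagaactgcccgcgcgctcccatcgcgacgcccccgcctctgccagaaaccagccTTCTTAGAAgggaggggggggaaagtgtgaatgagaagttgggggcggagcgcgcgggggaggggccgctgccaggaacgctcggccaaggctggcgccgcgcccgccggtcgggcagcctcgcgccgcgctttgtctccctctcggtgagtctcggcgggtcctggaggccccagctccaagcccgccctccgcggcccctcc
Lifr: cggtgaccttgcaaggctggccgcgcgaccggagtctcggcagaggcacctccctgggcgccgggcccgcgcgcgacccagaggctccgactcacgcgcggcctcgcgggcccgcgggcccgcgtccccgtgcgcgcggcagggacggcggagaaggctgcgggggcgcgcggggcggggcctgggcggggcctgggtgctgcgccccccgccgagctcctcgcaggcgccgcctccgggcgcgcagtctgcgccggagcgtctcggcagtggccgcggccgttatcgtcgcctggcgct
Bcl3: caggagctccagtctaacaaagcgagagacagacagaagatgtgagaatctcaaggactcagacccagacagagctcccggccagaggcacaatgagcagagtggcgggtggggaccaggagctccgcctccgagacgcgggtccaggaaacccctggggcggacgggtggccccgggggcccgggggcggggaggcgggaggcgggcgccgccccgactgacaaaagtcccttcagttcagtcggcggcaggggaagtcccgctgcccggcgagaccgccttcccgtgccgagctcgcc
A match is a run of letters and not a measured binding site, and no binding was measured here.

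Signals are on a log2 scale, with 0 at the 75th percentile of each array's processed signals. Differences come from a limma fit of 4 group means over all 16 arrays. A gene is called at an adjusted p (Benjamini-Hochberg over all 15517 genes) under 0.05 and at least 2-fold. The arrays lay on 2 slides. Slide 1 held LIF_serum arrays 1 and 2, 3 arrays of 2i_LIF and 3 of 2iSB_LIF, and slide 2 held the rest, all 4 EpiSC arrays among them. LIF_serum arrays 1 and 2 carry the code LS in their descriptions and arrays 3 and 4 the code LSFF, whose meanings are not given in the sources used here. Code and slide coincide there and cannot be told apart. The labels name each array as a separate line, so the spread measured is that between lines.

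The labels were checked against marker lists. Of 9 naive markers 8 were called lower in EpiSC in each of the 3 comparisons. Of 7 primed epiblast markers 4 were called higher against LIF_serum, and 5 against each ground-state group. Over all genes 15.6%, 16.8% and 16.2% were called lower in EpiSC against LIF_serum, 2i_LIF and 2iSB_LIF. Called higher were 18%, 20.6% and 20.1%. All 6 pluripotent markers lay well above background on every LIF array, and 5 on the EpiSC arrays, where Dppa4 did not. The 20 fibroblast markers moved with the same groups: 17, 19 and 19 were called higher in EpiSC than in LIF_serum, 2i_LIF and 2iSB_LIF. Their summed signal, in units of the array's 75th percentile, was 567 to 751 in EpiSC, 126 to 231 in LIF_serum, 39.3 to 61.6 in 2i_LIF and 26.5 to 87.3 in 2iSB_LIF. All 20 lay well above background on every EpiSC array, 16 to 20 on LIF_serum arrays, 9 to 14 on 2i_LIF arrays and 8 to 13 on 2iSB_LIF arrays. Within LIF_serum the sums were 231 and 209 on the LS arrays and 126 and 127 on the LSFF arrays. The part of fibroblast RNA in the results was not tested. In these bulk samples, fewer cells of a type and less RNA per cell cannot be told apart.

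The first comparison set the primed lines, kept without LIF, against the 3 groups kept with it. Lifr and Bcl3 were lower in EpiSC than in every LIF group, by 5.74- to 9.41-fold for Lifr and by 3.08- to 6.96-fold for Bcl3. Socs3 was lower by close to 2-fold in all 3 comparisons. Pim3 was lower against LIF_serum and 2i_LIF and not against 2iSB_LIF. No difference of the brightest Stat3 probe or of Pim1 passed an adjusted p under 0.05 with this processing. No member was called higher in EpiSC.

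Against LIF_serum, 4 of 8 members were called lower, beside 33.6% of all genes called, 15.6% lower. Against 2i_LIF, 2 of 8 were called lower, beside 37.4% of all genes called and 16.8% lower. Against 2iSB_LIF, 2 of 8 were called lower, beside 36.3% called and 16.2% lower. In that comparison 4 were called without 2iSB_LIF array 4, beside 35.7% of all genes. With the adjusted p alone and no minimum fold, 6 members fell against 2i_LIF, where 25.9% of all genes did, and 4 fell against 2iSB_LIF, where 25.3% did. The median log2 difference of the members was -0.71, -0.86 and -0.70, beside 0.07, 0.04 and 0.04 over all genes. Every EpiSC array lay below all 12 arrays kept with LIF for 3 members, Lifr, Socs3 and Bcl3, and 15.9% of all genes lay so. The 3 comparisons share the EpiSC arrays, so they do not repeat each other independently.

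**Figure D1:**
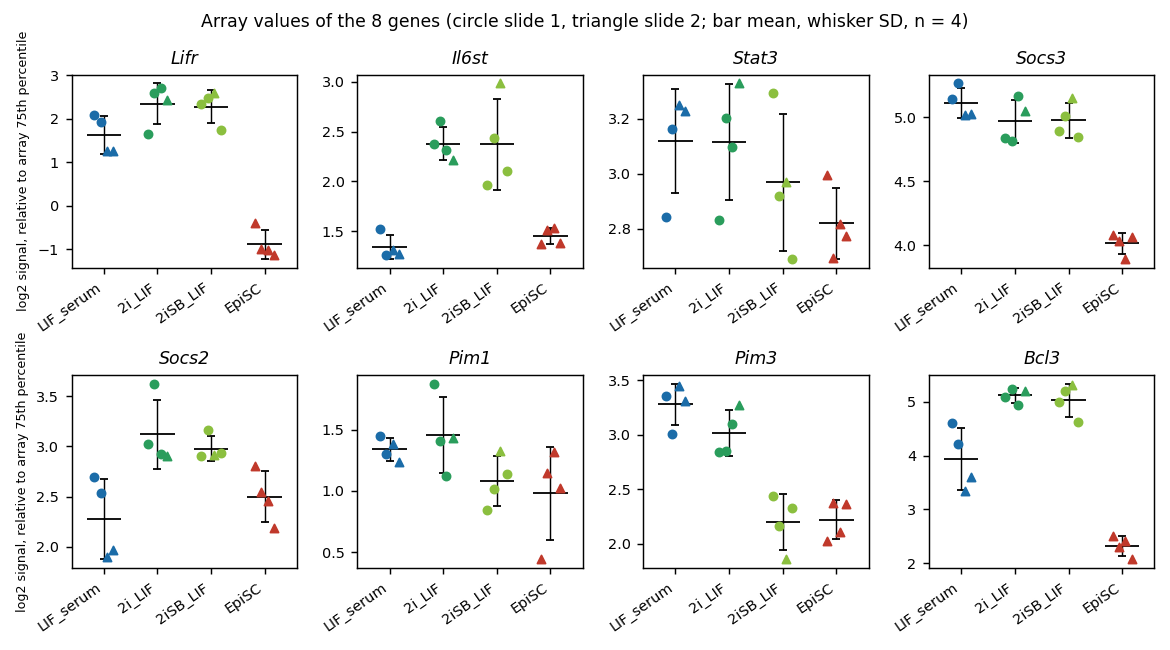
Log2 signal relative to the array's 75th percentile (vertical axis, own scale in each panel) of the 8 members on 16 arrays, by culture group, with circles for slide 1 and triangles for slide 2; the bar is the group mean and the whisker its SD (n = 4). EpiSC points of Lifr, Socs3 and Bcl3 lie below all 12 points of the LIF groups, and Pim3 is low in both EpiSC and 2iSB_LIF.

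Lifr encodes the LIF-binding chain. Its log2 signals, in array order, were 2.08, 1.93, 1.27 and 1.26 in LIF_serum, 1.66, 2.59, 2.71 and 2.43 in 2i_LIF, 2.34, 2.47, 2.59 and 1.74 in 2iSB_LIF, and -0.39, -1.00, -1.02 and -1.14 in EpiSC. The 4 EpiSC arrays were the lowest by a wide gap, and the LIF groups overlapped each other. The highest EpiSC array was at -0.39 and the lowest LIF array at 1.26. Group means ran from 2i_LIF (2.35 ± 0.47, SD, n = 4) through 2iSB_LIF (2.28 ± 0.38) and LIF_serum (1.63 ± 0.43) to EpiSC (-0.89 ± 0.34). The last step alone in that order passed the test. The EpiSC difference was -2.52 (SE 0.28, 95% interval -3.11 to -1.93, adjusted p = 3.2e-06) against LIF_serum. It was -3.23 (adjusted p = 1.4e-07) against 2i_LIF and -3.17 (adjusted p = 1.7e-07) against 2iSB_LIF. On slide 2 alone, with 2 LIF_serum arrays, the difference from LIF_serum was -2.15 (limma, adjusted p = 1.6e-04), and with slide as a block it was -2.45.

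The 3 Lifr probes did not give the same size. Probe A_55_P2159259, the brightest, gave the values above. Probe A_51_P113182 gave -1.47, -2.24 and -2.23 in EpiSC against LIF_serum, 2i_LIF and 2iSB_LIF. A_55_P2159264, which the files list under another RefSeq transcript of the gene, gave -3.44, -3.25 and -3.25. All 3 probes were thus called lower in EpiSC in all 3 comparisons, where 31.8%, 36.6% and 35.3% of 33275 probes were called. In 2i_LIF against LIF_serum the probes disagreed: the first 2 gave 0.71 and 0.77 and A_55_P2159264 gave -0.19, none of them called. Against the 2iSB_LIF lines the same probes stood at 0.65, 0.76 and -0.19.

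**Figure D2:**
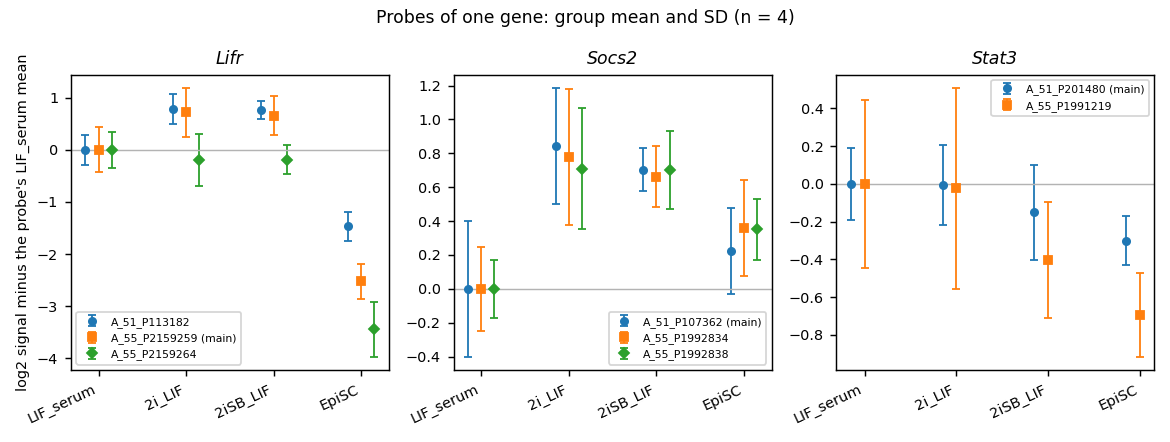
Group mean and SD (n = 4) of each probe of Lifr, Socs2 and Stat3, as log2 signal minus that probe's LIF_serum mean (vertical axis), by culture group. All Lifr probes drop in EpiSC, by -1.47 to -3.44, while the probe A_55_P2159264 does not share the rise of the others in the ground-state groups; the 3 Socs2 probes move together.

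Il6st encodes gp130, the signalling chain shared by the receptors of the IL-6 family. Its log2 signals were 1.52, 1.26, 1.31 and 1.27 in LIF_serum, 2.37, 2.61, 2.32 and 2.22 in 2i_LIF, 1.96, 2.43, 2.99 and 2.10 in 2iSB_LIF, and 1.37, 1.51, 1.53 and 1.38 in EpiSC. Both ground-state groups lay above both other groups with no overlap, and LIF_serum and EpiSC overlapped. The order was 2i_LIF (2.38 ± 0.17), 2iSB_LIF (2.37 ± 0.46), EpiSC (1.45 ± 0.08) and LIF_serum (1.34 ± 0.12), with a difference past the adjusted p at the second step only. EpiSC against LIF_serum was 0.11 (SE 0.19, 95% interval -0.29 to 0.51, adjusted p = 0.64). It was 1.04 higher in 2i_LIF (2.06-fold, adjusted p = 8.6e-04) and 1.03 higher in 2iSB_LIF (adjusted p = 8.0e-04) than in LIF_serum, both called. EpiSC fell below 2i_LIF by 0.93 and below 2iSB_LIF by 0.92, past the adjusted p (6.4e-04 and 6.9e-04) and short of 2-fold.

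Stat3 encodes the transcription factor itself, and its brightest probe varied over 0.64 log2 units across the 16 arrays. Signals were 2.84, 3.16, 3.25 and 3.23 in LIF_serum, 2.83, 3.20, 3.10 and 3.33 in 2i_LIF, 3.29, 2.92, 2.97 and 2.69 in 2iSB_LIF, and 2.99, 2.69, 2.82 and 2.77 in EpiSC. Every pair of groups overlapped. The order was LIF_serum (3.12 ± 0.19), 2i_LIF (3.11 ± 0.21), 2iSB_LIF (2.97 ± 0.25) and EpiSC (2.82 ± 0.13), with no step past the test. EpiSC stood at -0.30 from LIF_serum (95% interval -0.64 to 0.04, adjusted p = 0.12) and -0.30 from 2i_LIF (-0.63 to 0.04, adjusted p = 0.13). The second probe, A_55_P1991219, gave -0.69 (adjusted p = 0.047) and -0.67 (adjusted p = 0.051). For EpiSC against LIF_serum the adjusted p of Stat3 was also under 0.05 with the mean of its probes (0.042), quantile normalization (0.03), the authors' deposited log2 table (0.04), slide as a block (0.049) and slide 2 alone (0.016), in each case short of 2-fold. The Stat3 transcript says nothing about STAT3 phosphorylation, which was not measured.

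Socs3 encodes the feedback inhibitor that binds gp130 and JAK kinases. Its signals were 5.14, 5.26, 5.01 and 5.02 in LIF_serum, 4.84, 4.81, 5.16 and 5.04 in 2i_LIF, 4.89, 5.01, 5.15 and 4.84 in 2iSB_LIF, and 4.08, 4.03, 3.89 and 4.06 in EpiSC. The 3 LIF groups overlapped closely, and all EpiSC arrays lay below them. The groups stood in the order LIF_serum (5.11 ± 0.12), 2iSB_LIF (4.97 ± 0.14), 2i_LIF (4.97 ± 0.17) and EpiSC (4.02 ± 0.08), with the last step alone past the test. EpiSC differed by -1.09 (SE 0.12, adjusted p = 4.6e-06) from LIF_serum, a 2.13-fold decrease that was called. It differed by -0.95 (adjusted p = 1.2e-05) from 2i_LIF and by -0.96 (adjusted p = 1.2e-05) from 2iSB_LIF, just short of 2-fold. With arrays centred on their median the difference from LIF_serum was -0.56 (adjusted p = 0.063) and was not called. On slide 2 alone it was -1.00 and was called. The differences from the single 2i_LIF and 2iSB_LIF arrays there were -1.03 and -1.13.

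Socs2, which encodes a SOCS protein known for restraining growth hormone receptor signalling, had another pattern. Its signals were 2.69, 2.54, 1.90 and 1.97 in LIF_serum, 3.03, 3.63, 2.92 and 2.90 in 2i_LIF, 2.90, 3.16, 2.91 and 2.94 in 2iSB_LIF, and 2.80, 2.55, 2.45 and 2.19 in EpiSC. On this brightest probe both ground-state groups lay above the other groups, and EpiSC overlapped LIF_serum. The order was 2i_LIF (3.12 ± 0.34), 2iSB_LIF (2.98 ± 0.13), EpiSC (2.50 ± 0.25) and LIF_serum (2.27 ± 0.40), with no neighbours apart by the test. EpiSC stood 0.22 from LIF_serum (adjusted p = 0.39), -0.62 from 2i_LIF (adjusted p = 0.022) and -0.48 from 2iSB_LIF (adjusted p = 0.068). The other 2 probes gave 0.36 and 0.35 for the first of these, and -0.42 and -0.36 against 2i_LIF, with adjusted p of 0.11 and 0.12. On these 2 probes EpiSC overlapped both ground-state groups. It reached 2.52 and 2.08, where 2i_LIF began at 2.30 and 1.91 and 2iSB_LIF at 2.28 and 1.97. No Socs2 probe was called in any comparison of all 4 LIF_serum arrays.

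Pim1 and Pim3 encode kinases of the same family and differed in pattern. The Pim1 signals were 1.45, 1.30, 1.38 and 1.23 in LIF_serum, 1.88, 1.41, 1.12 and 1.43 in 2i_LIF, 0.84, 1.01, 1.33 and 1.13 in 2iSB_LIF, and 0.44, 1.15, 1.32 and 1.02 in EpiSC. All pairs of groups overlapped, and the lowest array was an EpiSC array at 0.44. From 2i_LIF (1.46 ± 0.31) through LIF_serum (1.34 ± 0.09) and 2iSB_LIF (1.08 ± 0.20) to EpiSC (0.98 ± 0.38), no step passed the test. The EpiSC difference for Pim1 was -0.36 (adjusted p = 0.14) against LIF_serum, -0.48 (adjusted p = 0.051) against 2i_LIF and -0.10 against 2iSB_LIF. With quantile normalization the adjusted p was 0.047 against LIF_serum and 0.028 against 2i_LIF, short of 2-fold.

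Pim3 was low both in EpiSC and in 2iSB_LIF. Its signals were 3.35, 3.01, 3.45 and 3.31 in LIF_serum, 2.84, 2.85, 3.10 and 3.27 in 2i_LIF, 2.44, 2.17, 1.86 and 2.33 in 2iSB_LIF, and 2.03, 2.38, 2.11 and 2.36 in EpiSC. LIF_serum and 2i_LIF overlapped, 2iSB_LIF and EpiSC overlapped, and the first pair lay above the second. The order was LIF_serum (3.28 ± 0.19), 2i_LIF (3.02 ± 0.21), EpiSC (2.22 ± 0.18) and 2iSB_LIF (2.20 ± 0.25), with the second step past the test. EpiSC was -1.06 (SE 0.16, adjusted p = 7.6e-05) from LIF_serum, which was called, and -0.80 (adjusted p = 7.5e-04) from 2i_LIF. It was 0.02 (95% interval -0.33 to 0.37, adjusted p = 0.92) from 2iSB_LIF, a group kept with LIF, and the cause was not tested. The call against LIF_serum was lost at -0.97 with normexp background correction, at -0.52 (adjusted p = 0.093) with median centring, at -1.00 without EpiSC array 1 and at -0.96 against the LS arrays alone.

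Bcl3 varied over 3.24 log2 units across the arrays, next to 3.85 for Lifr. Its signals were 4.61, 4.21, 3.34 and 3.60 in LIF_serum, 5.10, 5.24, 4.93 and 5.20 in 2i_LIF, 4.99, 5.21, 5.31 and 4.62 in 2iSB_LIF, and 2.51, 2.29, 2.41 and 2.07 in EpiSC. EpiSC lay lowest, LIF_serum between, and the ground-state groups highest; the latter overlapped each other, and the gap to LIF_serum was narrow, from 4.61 to 4.62. The order was 2i_LIF (5.12 ± 0.14), 2iSB_LIF (5.03 ± 0.31), LIF_serum (3.94 ± 0.58) and EpiSC (2.32 ± 0.19), with the latter 2 steps past the test. EpiSC differed by -1.62 (SE 0.24, adjusted p = 5.6e-05) from LIF_serum, -2.80 (adjusted p = 1.5e-07) from 2i_LIF and -2.71 (adjusted p = 2.1e-07) from 2iSB_LIF. The LIF_serum difference was -1.15 on slide 2 alone and -1.50 with slide as a block, and stayed called in both.

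**Figure D3:**
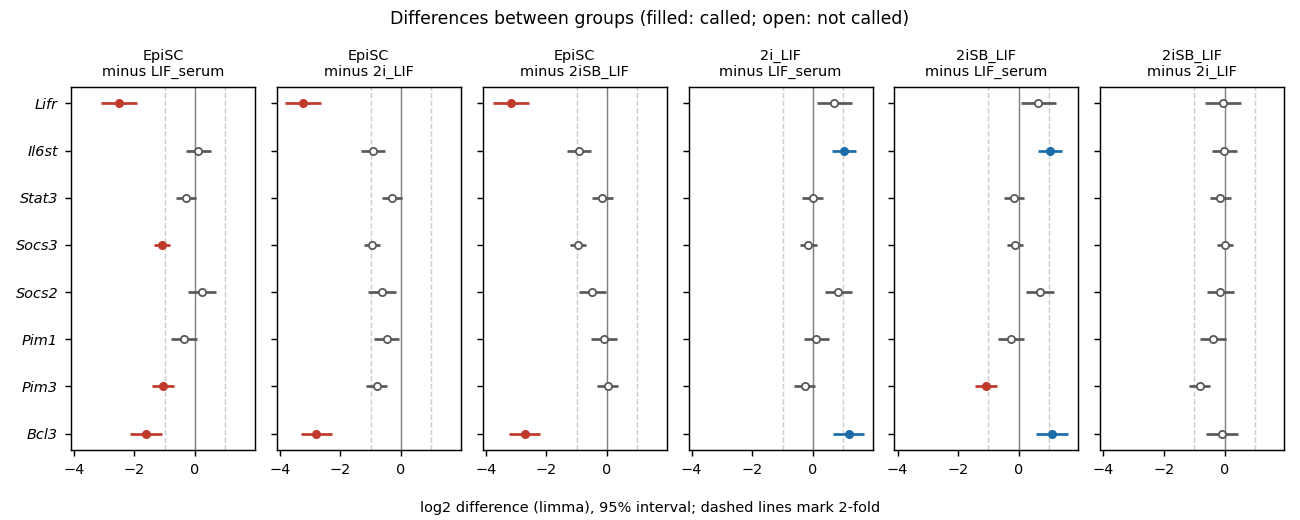
Log2 differences of the 8 members in 6 comparisons, with 95% intervals from the limma fit (horizontal axis); filled points are called, red lower and blue higher, and dashed lines mark 2-fold. Lifr and Bcl3 are called lower in all 3 EpiSC comparisons, and no point is filled in 2iSB_LIF minus 2i_LIF.

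The second comparison was between the ground-state groups and LIF_serum, all kept with LIF. Bcl3 and Il6st were higher in both ground-state groups, Socs2 was higher past the adjusted p and under 2-fold, and Pim3 was called lower in 2iSB_LIF. In 2i_LIF against LIF_serum 2 of 8 members were called, both higher, beside 18.3% of all genes called and 6.25% higher. In 2iSB_LIF against LIF_serum 3 were called, 2 higher and 1 lower, beside 20.1% called, 6.81% higher and 13.3% lower. Without 2iSB_LIF array 3 none of these 3 was called, beside 17.2% of all genes, with Il6st at 0.83 and Pim3 at -0.97. Without LIF_serum array 3 or without 2i_LIF array 2, 1 member was called in 2i_LIF against LIF_serum, beside 15.8% and 15.5% of all genes. The median difference of the members was 0.42 and 0.26, beside 0.02 and 0.02 over all genes. Both comparisons share the LIF_serum arrays.

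Bcl3 rose by 1.18 (SE 0.24, 2.26-fold, adjusted p = 0.0022) in 2i_LIF and by 1.09 (adjusted p = 0.0032) in 2iSB_LIF. Il6st rose as given above. Pim3 differed by -1.08 (SE 0.16, adjusted p = 2.0e-04) in 2iSB_LIF and by -0.26 (adjusted p = 0.24) in 2i_LIF. Socs2 rose by 0.84 (adjusted p = 0.0081) and 0.70 (adjusted p = 0.020). On its brightest probe Lifr stood at 0.71 (adjusted p = 0.065) and 0.65 (adjusted p = 0.085), with all 3 LIF groups overlapping. Its probe A_51_P113182 stood at 0.77 (limma, adjusted p = 0.01) and 0.76 (adjusted p = 0.0098), short of 2-fold. On that probe LIF_serum reached -1.82, below 2i_LIF, which began at -1.73, and 2iSB_LIF, which began at -1.58. The probe A_55_P2159264 went the other way, at -0.19 in both comparisons. Socs3, at -0.15 and -0.14, Stat3 and Pim1 did not pass the test.

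These values depended on which LIF_serum arrays were used. Between the LS and the LSFF arrays, with 2 arrays each, Bcl3 averaged 4.41 and 3.47, Lifr 2.01 and 1.26, and Socs2 2.62 and 1.93. The other 5 members differed by at most 0.24 between the codes. Against the LS arrays alone no member was called in 2i_LIF or 2iSB_LIF, with Bcl3 at 0.71 (limma, adjusted p = 0.034) and 0.62 (adjusted p = 0.053) and Il6st at 0.99 and 0.98. Against the LSFF arrays alone 4 and 5 members were called, with Lifr at 1.09 and 1.02 and Socs2 at 1.18 and 1.04 among them. Of all genes 13.9% and 15.7% were called against the LS arrays, and 23% and 23.7% against the LSFF arrays. Within slide 1, which holds the LS arrays, Bcl3 stood at 0.68 (limma, adjusted p = 0.098) in 2i_LIF and 0.53 (adjusted p = 0.17) in 2iSB_LIF. Within slide 2, where each ground-state group has a single array, it stood at 1.73 and 1.85, with Lifr at 1.16 and 1.33. With passage number as a covariate no member was called in either comparison, beside 15.3% and 12.3% of all genes.

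The third comparison asked what SB431542 adds to 2i and LIF. No member was called in 2iSB_LIF against 2i_LIF with limma, where 13 of 15517 genes (0.0838%) were called. Pim3 was the 1 member with an unadjusted p under 0.05, as 5.59% of all genes were. Its 2iSB_LIF arrays, 1.86 to 2.44, lay below its 2i_LIF arrays, 2.84 to 3.27, with a difference of -0.82 (SE 0.16, adjusted p = 0.094). Of all genes 1.25% lay so. With slide 2 alone, where each of these groups has a single array assumed to vary like the other groups, Pim3 stood at -1.42. For Lifr, Il6st, Socs3 and Bcl3 the differences were -0.06, -0.01, 0.01 and -0.09, and the interval for Lifr ran from -0.66 to 0.53.

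**Figure D4:**
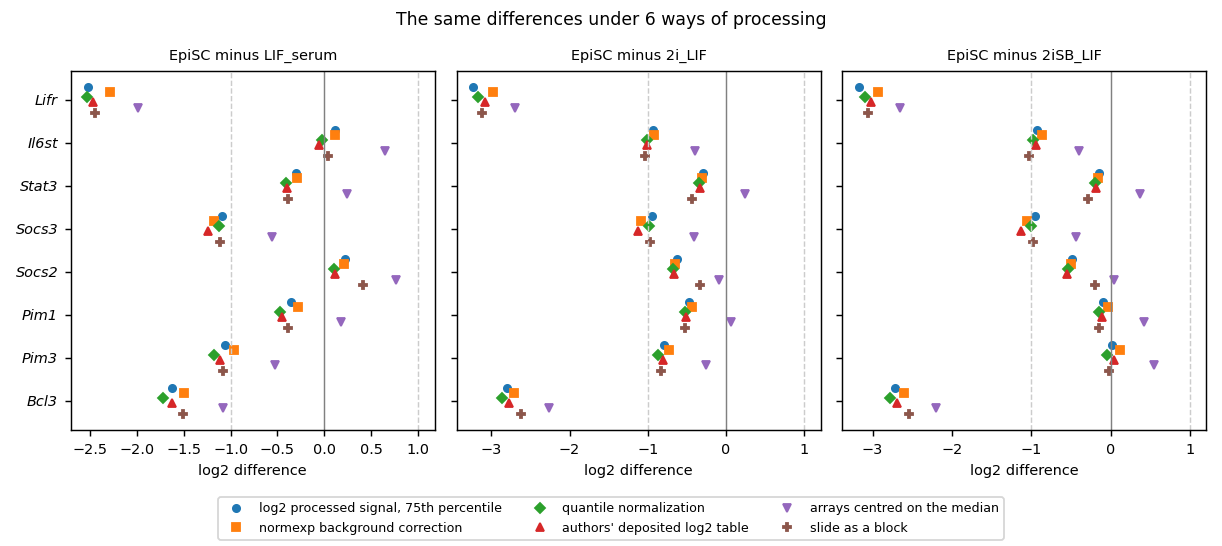
Log2 differences of the 8 members between EpiSC and each group kept with LIF (horizontal axis) under 6 ways of processing the same arrays, 1 marker each; dashed lines mark 2-fold. Centring arrays on their median moves all members to the right, so that Socs3 goes from -1.09 to -0.56 against LIF_serum, while Lifr stays at or below -1.98.

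The direction of small differences depended on the scaling. Centring each array on its median, in place of the 75th percentile, moved the median of all genes in EpiSC against LIF_serum from 0.07 to 0.61, and the share of calls that were higher from 53.5% to 75.9%. Lifr (-1.98) and Bcl3 (-1.08) stayed called lower, and Stat3 (0.24) and Pim1 (0.18) changed sign without being called in either scaling.

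The other genes of the pathway were taken from 6 lists of textbook members. Of 8 cytokine genes of the IL-6 family, 5 were called higher and 1 lower in EpiSC than in LIF_serum. There 18% of all genes were called higher and 15.6% lower. Against 2i_LIF and 2iSB_LIF 4 and 3 were higher, beside 20.6% and 20.1% of all genes. Lif itself, which encodes the ligand added to the other cultures, was higher in EpiSC by 1.41 (SE 0.30, limma, adjusted p = 0.001) than in LIF_serum and by 1.38 than in 2i_LIF. Against 2iSB_LIF the difference of Lif was 0.62 (adjusted p = 0.089), and the arrays overlapped. With normexp background correction Lif stood at 0.62 and 0.61 and was not called. Il11 was higher by 2.53, 4.68 and 4.74 in EpiSC than in LIF_serum, 2i_LIF and 2iSB_LIF. Osm, which encodes oncostatin M, was not well above background in EpiSC and was at least 5.28-, 18.6- and 13.1-fold lower there. Such bounds set the brighter group's mean against the lowest signal counted as above background.

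Of 8 other receptor chain genes, 2 were called higher and 2 lower in EpiSC than in LIF_serum, beside 18% and 15.6% of all genes. Il27ra averaged -3.15 in LIF_serum and -6.32 in EpiSC, where it was not well above background. Ebi3 averaged -0.10 in LIF_serum and -1.77 in EpiSC. Cntfr, the ligand-binding chain for ciliary neurotrophic factor, which signals through LIFR and gp130, was higher by 4.32, 6.13 and 5.86 against the 3 LIF groups, with 3 of 4 2iSB_LIF arrays well above background. Osmr, the oncostatin M receptor chain that pairs with gp130, was well above background on all EpiSC arrays, on the LS arrays of LIF_serum and on no other array. In EpiSC it read 1.66, 0.72, 1.75 and 0.81, and in LIF_serum -0.21, -0.65, -6.60 and -5.67, so the serum arrays split by code. It was at least 82.7-fold higher in EpiSC than in 2i_LIF and at least 85.5-fold higher than in 2iSB_LIF. Il6 split the same way in LIF_serum, at -1.60 and -1.52 on the LS arrays and not well above background on the LSFF arrays. In EpiSC Il6 averaged -0.27. The fibroblast marker sums given above are also higher on the LS than on the LSFF arrays, and their part in these values was not tested.

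Of 9 tested genes for JAK kinases and other STATs, 1 was called higher and 3 lower in EpiSC than in LIF_serum. The shares of all genes were 18% and 15.6%. Jak1, the main kinase at gp130, was higher in EpiSC by 0.67, 0.68 and 0.69, past the adjusted p (0.0093, 0.0074 and 0.0067) and short of 2-fold. Jak2 was higher by 1.29, 1.21 and 1.40 and was called each time. Jak3, known for its work with cytokine receptors of lymphocytes, went the other way, at -1.90, -3.46 and -3.42, and was 1.56 and 1.52 higher in 2i_LIF and 2iSB_LIF than in LIF_serum.

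Of 16 negative regulators, 5 were called higher and none lower in EpiSC than in LIF_serum by limma. Against each ground-state group, 6 of them were called higher and 2 lower. Of all genes 18% were called higher and 15.6% lower against LIF_serum, 20.6% and 16.8% against 2i_LIF, and 20.1% and 16.2% against 2iSB_LIF. Socs1 and Socs5, relatives of Socs3, were higher in EpiSC by 1.29 and 2.94 than in LIF_serum and by 2.15 and 3.66 than in 2i_LIF, while Socs3 was lower. Socs5 was well above background on 3 of 4 LIF_serum arrays. With slide as a block the Socs1 difference from LIF_serum was 0.93 and not called. Ptpn1, a tyrosine phosphatase that acts on JAK kinases, was higher by 2.41 in EpiSC than in LIF_serum. Cish was lower in 2i_LIF by -1.65 and in 2iSB_LIF by -1.59 than in LIF_serum, where Socs2 was higher.

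Of 17 further STAT3 targets in embryonic stem cells, 3 were called higher and 5 lower in EpiSC than in LIF_serum. Over all genes 18% were called higher and 15.6% lower. Against each ground-state group 5 were higher and 6 lower, beside 20.6% and 16.8% of all genes for 2i_LIF and 20.1% and 16.2% for 2iSB_LIF. The lower ones include transcription factors of naive pluripotency: Esrrb stood at -8.47, Tfcp2l1 at -6.26 and Tbx3 at -3.06 against LIF_serum. These 3 also stand in the list of naive markers. Pramel7 was at least 13.5-fold lower. The higher ones were the early response genes Junb (3.14) and Fos (2.46) and the kinase gene Pim2 (1.85). Pim2 was 4.31 and 3.52 higher in EpiSC than in 2i_LIF and 2iSB_LIF, and -2.46 and -1.67 in those groups against LIF_serum. It thus lay on the other side from its relative Pim3 in EpiSC against LIF_serum under the 5 ways of scaling, background correction and slide that were run.

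Of 16 STAT3 targets known from other tissues, 8 were called higher and 2 lower in EpiSC than in LIF_serum. Over all genes 18% were called higher and 15.6% lower. Fosl2, which encodes an AP-1 subunit, was higher by 4.54. Saa3, which encodes an acute-phase protein, was at least 6.75-fold higher. Icam1, an adhesion molecule gene, stood at -3.47. Fgl1 stood at -3.29, with 1 of 4 EpiSC arrays well above background. The list medians in EpiSC against LIF_serum were 1.25 for cytokines, 0.29 for receptor chains, -0.65 for kinases and STATs, 0.47 for negative regulators, -0.54 for targets in embryonic stem cells and 1.04 for other targets, beside 0.07 over all genes. With median centring, the counts called higher and lower were 5 and 1 cytokines and 4 and 1 receptor chains. They were 2 and 1 kinases and STATs, 8 and 0 negative regulators and 5 and 4 targets in embryonic stem cells. For other targets they were 11 and 2. Of all genes 43.4% were called in that scaling, and 75.9% of those calls were higher. No gene of the 6 lists was called in 2iSB_LIF against 2i_LIF by limma.

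**Figure D5:**
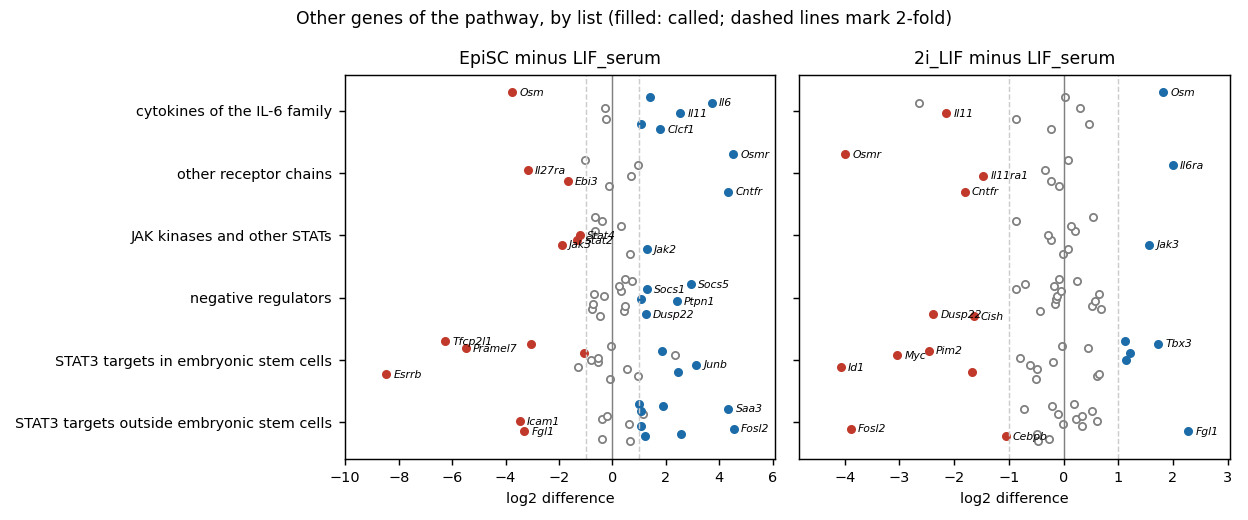
Log2 difference (horizontal axis) of each tested gene of 6 pathway lists in EpiSC minus LIF_serum and 2i_LIF minus LIF_serum, 1 point a gene; filled points are called, red lower and blue higher, and the 4 largest called of each list are named. Cytokines are mostly to the right in EpiSC, with 5 of 8 called higher. The targets in embryonic stem cells spread to both sides, with 3 called higher and 5 lower. Of all genes 18% were called higher and 15.6% lower in EpiSC minus LIF_serum.

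In 2i_LIF against LIF_serum, where 6.25% of all genes were called higher and 12.1% lower, the same lists had 1 cytokine gene higher and 1 lower, 1 receptor chain higher and 3 lower, and 1 kinase gene higher. Of the negative regulators 2 were lower, of the targets in embryonic stem cells 4 were higher and 4 lower, and of the other targets 1 was higher and 2 lower. Tbx3 rose by 1.73, while Id1 fell by 4.07. Myc stood at -3.04 and Fosl2 at -3.89, each with 3 of 4 2i_LIF arrays well above background.

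The genes of most similar pattern were sought over the 16 arrays among 11793 candidates well above background throughout. Pearson's r is given as a description, since the arrays share the group structure. Lifr went closest with Cobl (r = 0.98), Il6st with Cmtm7 (r = 0.95), Socs3 with Engase (r = 0.98), Bcl3 with Zim3 (r = 0.99), Pim3 with Krt17 (r = 0.92) and Socs2 with Dyrk1b (r = 0.94). Stat3 and Pim1 had weaker best partners, Lsm4 (r = 0.86) and Grhpr (r = 0.83). Among the members, Lifr and Bcl3 had r = 0.96, and 0.71 after the group means were taken out. Lifr and Socs3 had r = 0.92, and 0.65 after that step. Pim3 and Il6st had r = -0.27, and -0.63 within groups. Taking out group means leaves the split of LS and LSFF arrays within LIF_serum. There the LS arrays were higher by 0.75 for Lifr and by 0.94 for Bcl3. The part of this split in the within-group r was not tested.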

How the data were processed

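Total RNA from 16 lines was labelled with Cy3 and hybridised to single-colour Agilent arrays. The authors deposited scanner files of linear intensity, written by Feature Extraction (10.7.1.1) per the file headers, with a background-subtracted processed signal. They also deposited a table of log2 values, used as an alternative; its normalization method was not given in the sources used here, its 42316 probes include the 13 member probes, and its column medians lie between 7.51 and 7.58. Its direction follows the labels, and its values correlate with log2 processed signals at r = 0.989 to 0.994.

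Outlier spots (100 to 321 an array) were left out, spots of a probe averaged, and log2 processed signal set relative to each array's 75th percentile (646 to 1039). No member probe was saturated. Between 51.5% and 63.6% of probes lay well above background. Precision is limited by the number of arrays. Of 55681 probes, 27656 matched 1 gene through RefSeq accessions (GRCm38.p6; the array header names mm9), 16194 are named only by position and 11831 had no match. Each gene was represented by its brightest probe, and 15517 genes that passed the background flag on all 4 arrays of some group were tested with limma (3.58.1; lmFit and eBayes) in R (4.3.3), with data.table (1.17.8) and jsonlite (2.0.0), after a check on simulated data.

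The members and lists were chosen with earlier results of these data known. Genes beyond the members were named from the largest 4 called per list and comparison, though not all of those are named. Lif, Jak1, Jak2, Osmr, Socs1, Pim2 and Cish were added whatever their values. Genes of like pattern are those of highest r. Alternatives were normexp background correction (offset 50, on median signals, since mean signals are not in the files used here), median, quantile and deposited scaling, slide as a block or within a slide, passage, replicate block, LIF_serum code and leaving out each array. Replicate numbers were checked as possible pairs: of 24 same-numbered pairs, 7 correlated above 0.1 and 8 were the best match. Some same-numbered arrays lay on different slides, so the check cannot exclude a pairing.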

Additional observations from a re-analysis of the deposited data

Results flagged for a closer look

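Among 52 sets of 4 arrays (13 member probes in 4 groups), 2 had an array far from the other 3 by Dixon's test, which chance gives in about 5% of sets. Both were of the main Socs2 probe. In 2i_LIF, array 2 was at 3.63 and the others between 2.90 and 3.03. In 2iSB_LIF, array 2 was at 3.16 and the others between 2.90 and 2.94. Leaving out single arrays kept the Socs2 difference between 2i_LIF and LIF_serum at 0.68 to 0.98, short of 2-fold.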

How the results depend on the processing

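Of 1032 values of single members under an alternative, 927 kept their direction and their side of the threshold, 51 more kept their side but changed sign without being called, 32 lost a call, 22 gained 1 and none that was called changed sign. Lifr and Bcl3 stayed called lower in EpiSC in every comparison and alternative run. In EpiSC against LIF_serum, 2 members were called with median centring, beside 43.4% of all genes. With single arrays left out 3 to 4 were called, beside 32% to 33.3% of all genes. Against 2i_LIF, 6 were called by adjusted p alone (chosen after seeing the data) and 4 with the deposited table, beside 56.2% and 34% of all genes. Against 2iSB_LIF, 4 were called by adjusted p alone, beside 54.8% of all genes. Leaving out single arrays gave 2 to 4, the highest without 2iSB_LIF array 4. In 2i_LIF against LIF_serum, 1 was called with quantile normalization, 1 with the deposited table and 1 on slide 1 alone. Of all genes 18.3%, 16.4% and 10.9% were called in these. With passage as a covariate 0 were called, against LS arrays alone 0 and against LSFF arrays alone 4, beside 15.3%, 13.9% and 23%. Leaving out single arrays gave 1 to 2, the lowest without LIF_serum array 3 or 2i_LIF array 2. In 2iSB_LIF against LIF_serum, 0 were called on slide 1 alone, 0 with passage, 0 against LS arrays and 5 against LSFF arrays. Of all genes 11.3%, 12.3%, 15.7% and 23.7% were called in these. Leaving out single arrays gave 0 to 3, the lowest without 2iSB_LIF array 3. In 2iSB_LIF against 2i_LIF, Pim3 stood at -1.42 on slide 2 alone. The lone array of a group on a slide is assumed to vary like the other groups, and the causes were not tested. With the replicate block the counts of members called were 4, 2, 2, 2, 3 and 0, as without it, and those of all genes 5179, 5804, 5634, 2733, 3033 and 8; without it the last was 13. All member probes lay well above background, so signal did not limit their detection.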
